A study of Mus musculus with 43 samples.

Results

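The 33 genes described here mark astrocytes and radial glia, and were taken by gene symbol from a table of 56980 mouse genes counted by RNA-seq in 43 libraries. Each library came from GFP-positive L2/3 neurons sorted by FACS from the somatosensory cortex of C57BL/6JRccHsd mice, whose progenitors had been labelled by in utero electroporation (IUE) in the embryo. The 13 groups were WT, Cux1 KO and Cux2 KO at E19 (4 females and 4 males of each), WT and Cux2 KO at P4 (3 females and 3 males of each), Cux1 KO males at P4 (2 libraries), and WT at P7 (2 females and 3 males). WT mice received the plasmid pCAG-GFP, as did Cux2-/- mice, which lack Cux2 in the germline, and Cux1 ΔC/ΔC mice, which served as the Cux1 KO at E19. The Cux1 KO at P4 was a different model. Cux1 f/Δ23 males received a Cre plasmid and a Cre-dependent GFP plasmid, so that only electroporated cells and their descendants became Δ23/Δ23, in otherwise heterozygous animals. The Cux1 KO groups of E19 and P4 therefore differed in allele and in plasmid, and E19 libraries were sequenced in another round than P4 and P7 libraries, so that a difference between E19 and a later stage cannot be told apart from a difference between rounds.

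Radial glia are the stem cells of the embryonic cortex. They carry Vim, Nes, Fabp7, Pax6 and Sox2, produce neurons under the control of Notch signalling and its targets Hes1 and Hes5, and later give rise to astrocytes. Astrocytes keep Slc1a3, Sox9 and other radial glia genes and add the proteins with which they clear glutamate, couple through gap junctions and line blood vessels, such as Slc1a2, Gja1, Gjb6 and Aqp4. Neurons of the upper cortical layers express most of these genes little. The members fall into 7 roles, namely glutamate uptake (3 genes), membrane channels and junctions (7), intermediate filaments (3), transcription factors (6), metabolism and lipid handling (7), receptors and signalling (4), and extracellular matrix with its receptor (3).

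Library totals were 13321095 to 20715732 counts at E19, 19499125 to 60559585 at P4 and 15312029 to 27633827 at P7. Levels are given as CPM, which divides counts by the library total after TMM scaling over the 43 libraries. The label of the sorted cells was compared with 10 genes of upper-layer excitatory neurons, among them Cux1 and Cux2, whose summed level was highest at E19. Summed over these 10 genes, the level was 3653 to 5918 CPM in the 24 E19 libraries, 800.7 to 2038 CPM in the 14 P4 libraries and 429.8 to 634.1 CPM in the 5 P7 libraries. In WT, 8 of the 10 were called lower at P4 than at E19, against 24.8% of all genes tested. The E19 and P4 ranges pool WT and KO libraries. In WT alone the sum was 4099 to 5918 CPM at E19 and 831.7 to 1139 CPM at P4. Over the same stages the sum of the 33 glial genes was 5839 to 9067, 11510 to 19360 and 20730 to 27640 CPM, with no overlap between stages. The libraries of all stages were labelled as neurons, and glial RNA was present in each of them. These 2 sums hold different numbers of genes and are not corrected for length, so they are compared between stages and not with each other. In bulk RNA, more cells of a type and more RNA per cell cannot be told apart.

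**Figure D1:**
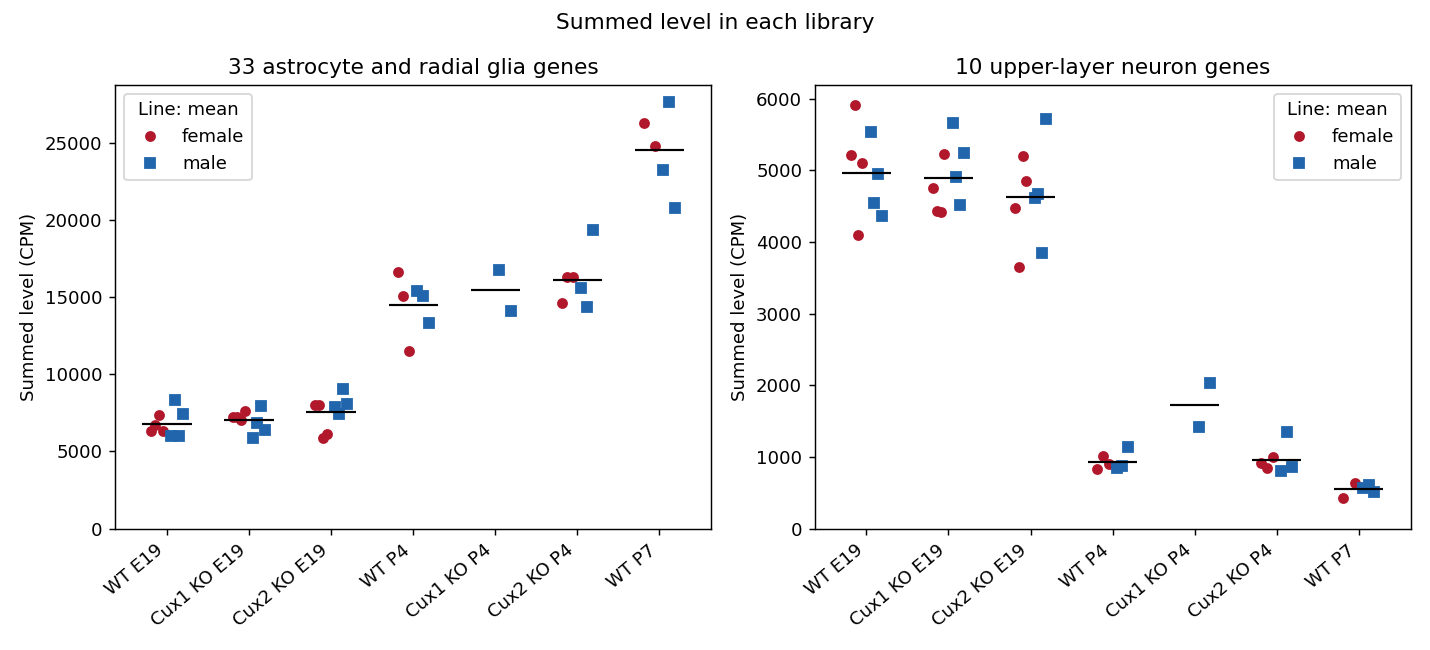
Summed level in CPM (vertical axes, from 0) of the 33 astrocyte and radial glia genes (left) and of 10 upper-layer neuron genes (right), with 1 point per library (circles females, squares males) and a line at the mean of each genotype and stage. The glial sum rose from stage to stage without overlap, to 20730 to 27640 CPM at P7, while the neuronal sum fell to 429.8 to 634.1 CPM.

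The first comparison asked how the glial genes changed between E19 and P4 in WT, over both sexes (8 and 6 libraries). A gene was called where the edgeR quasi-likelihood test gave an adjusted p under 0.05 over all genes and the absolute log2 fold change exceeded 1 (0.5 for comparisons within E19). Of the 33 members, 25 were called, 20 higher and 5 lower at P4, which is 75.8%, against 47.3% of the 20091 genes tested (22.5% higher and 24.8% lower). The median log2 fold change was 1.99 over the members and 0.03 over all genes. In Cux2 KO, with its own libraries at both stages, 24 members were called, 20 higher and 4 lower, against 48.1% of genes (23.7% higher and 24.3% lower), and the median was 1.89 against 0.08.

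All 7 genes of membrane channels and junctions rose from E19 to P4 in both genotypes. Gja1 (ENSMUSG00000050953, chromosome 10 from 56253241 to 56278609, GRCm39), which encodes the main astrocytic gap junction protein, had a lowest, median and highest level of 13.8, 22.8 and 38.05 CPM in the 8 WT libraries of E19 and of 533.1, 864.4 and 928.3 CPM in the 6 of P4. The groups did not overlap, and the log2 fold change was 4.95 (SE 0.206, adjusted p = 2.62e-10 by edgeR). Aqp4, the water channel of astrocytic endfeet, went from 12.4, 17.3 and 27.6 CPM to 219.7, 627.4 and 973.1 CPM (log2 fold change 5.07, SE 0.282, adjusted p = 3.2e-09). Its lowest P4 level was in WT female replicate 3, which was also the lowest of the 6 for Gja1, Slc1a2, Ptprz1 and Sox9. Cldn10, a claudin of tight junctions, rose by 4.09 (SE 0.222, adjusted p = 2.5e-09), Atp1b2, a subunit of the sodium pump, by 2.88 (SE 0.159, adjusted p = 2.97e-09), and Mlc1, an astrocytic membrane protein, by 1.99 (SE 0.128, adjusted p = 1.23e-08), all on the log2 scale. Gjb6, the other astrocytic connexin, had no count in 7 of the 8 WT libraries of E19 and 2 counts in the eighth, and was still low at P4, at 0.929 to 7.62 CPM, so that no fold is given.

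Among genes of glutamate uptake, Slc1a2 (chromosome 2 from 102488574 to 102621129), the glutamate transporter GLT-1, rose from 61.0, 76.1 and 107.2 CPM (lowest, median and highest) to 270.8, 586.3 and 692.1 CPM. Its log2 fold change was 2.72 (SE 0.182, adjusted p = 1.7e-08). Slc1a3, the glutamate transporter GLAST of radial glia and astrocytes, was at 507.6 ± 94.8 CPM at E19 (SD, n = 8) and 1730 ± 831 CPM at P4 (n = 6). Its P4 libraries spanned 609.7 to 2891 CPM and overlapped those of E19, and it was called higher (log2 fold change 1.66, SE 0.232, adjusted p = 2.32e-05). Glul, glutamine synthetase, missed the threshold of fold change (-0.47, adjusted p = 0.0155), at 349.9 ± 64.4 and 261.8 ± 58.8 CPM.

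Of the 6 transcription factors, 4 rose and none fell. Sox9 (chromosome 11 from 112673009 to 112678586), which directs gliogenesis, was the member with the smallest p-value. It was at 90.8 to 121.6 CPM in the 8 E19 libraries and at 701.3 to 1026 CPM in the 6 P4 libraries (log2 fold change 3.15, SE 0.0911, adjusted p = 1.86e-11). Hes5 (chromosome 4 from 155045373 to 155046828), a Notch target, rose from 14.0 to 28.6 CPM to 228.3 to 370.9 CPM (log2 fold change 3.81, SE 0.16, adjusted p = 2.7e-10). Hes1, another Notch target, and Id4, an inhibitor of basic helix-loop-helix factors, were called higher as well, with P4 levels of 98.9 ± 34.3 and 463.1 ± 91.5 CPM against 13.6 ± 4.51 and 103.7 ± 21.5 CPM at E19. Sox2 and Pax6, stem cell factors of radial glia, were not called. Sox2 was at 172.9 ± 38.4 CPM at E19 and 158.1 ± 29.9 CPM at P4, and Pax6 at 108.2 ± 19.1 and 146.7 ± 34.4 CPM. Of 16 other genes of the Notch pathway, 2 were called higher and 6 lower, against 22.5% and 24.8% of all genes tested. Their summed level was 1040 ± 77.87 CPM at E19 and 962.1 ± 39.65 CPM at P4 in WT. Notch1, a receptor, fell from a mean of 131.7 to 47.91 CPM (adjusted p = 1.29e-07), and Rbpj, the DNA-binding partner of the cleaved receptor, from 117 to 58.01 CPM (adjusted p = 6.33e-08), while Hes5 and Hes1 rose.

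Since Hes5 and Fabp7 moved in opposite directions and Gfap rose at both steps, the 250 bases before the start of the canonical transcript of each are shown (GENCODE M39 on GRCm39, 5′ to 3′ on the gene's strand). That of Gfap lies inside the annotated gene, since another transcript starts further upstream. Capitals mark TGGGAA, the core that RBPJ binds, and CACNAG, the N-box of HES factors, on either strand.

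Hes5: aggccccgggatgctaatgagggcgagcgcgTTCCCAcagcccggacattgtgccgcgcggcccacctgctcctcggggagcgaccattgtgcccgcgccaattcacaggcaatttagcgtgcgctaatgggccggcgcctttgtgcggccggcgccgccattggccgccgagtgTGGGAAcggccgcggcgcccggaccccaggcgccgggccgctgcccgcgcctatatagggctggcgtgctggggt

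Gfap: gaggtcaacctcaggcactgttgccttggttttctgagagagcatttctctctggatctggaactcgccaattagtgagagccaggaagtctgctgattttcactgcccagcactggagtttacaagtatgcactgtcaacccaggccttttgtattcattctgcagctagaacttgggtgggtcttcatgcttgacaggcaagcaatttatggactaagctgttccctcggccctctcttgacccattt

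Fabp7: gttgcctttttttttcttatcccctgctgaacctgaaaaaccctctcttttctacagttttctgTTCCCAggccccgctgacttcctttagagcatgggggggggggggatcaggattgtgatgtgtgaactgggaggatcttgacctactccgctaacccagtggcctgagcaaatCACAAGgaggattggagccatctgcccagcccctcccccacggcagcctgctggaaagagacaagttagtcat

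These windows are chr4:155045123-155045372 (plus strand) for Hes5, chr11:102788186-102788435 (minus strand) for Gfap and chr10:57660706-57660955 (plus strand) for Fabp7. The Hes5 window held the RBPJ core at 219 and at 75 bases upstream of the start, counted to the first base of the match, and the Fabp7 window held it at 186 bases and an N-box at 73 bases. The Gfap window held neither. Over the windows of 21618 protein-coding genes, 22.8% held the RBPJ core and 36.4% an N-box. Of the 33 members, 15 held the RBPJ core and 12 an N-box, and AACAAT, a core of SOX factors, stood in 4 members and in 9.61% of all windows. A match of letters describes the window and not binding.

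The intermediate filaments showed opposite changes. Gfap, the filament of mature astrocytes and of radial stem cells, was called higher at P4, with 9.52, 23.2 and 33.6 CPM (lowest, median, highest) at E19 and 169.9, 270.7 and 328.9 CPM at P4. Vim and Nes, the filaments of radial glia, were called lower. They were among 5 members called lower in WT, which were singled out after their values were seen. Vim fell from 432.4 to 776.6 CPM down to 100.9 to 225.6 CPM (log2 fold change -1.75, SE 0.17, adjusted p = 6.65e-07), and Nes from 150.8 to 213 CPM down to 36.9 to 63.9 CPM (log2 fold change -1.91, SE 0.139, adjusted p = 3.83e-08). No P4 library reached the E19 range in either gene.

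The other 3 genes that fell were of lipid handling. Fabp7, the brain fatty acid binding protein of radial glia, went from 476.4, 566.7 and 695.2 CPM to 14.2, 24.7 and 81.5 CPM (log2 fold change -4.26, SE 0.36, adjusted p = 1.62e-07), the largest fall among the members. Dbi, an acyl-CoA binding protein, had a log2 fold change of -2.18 (SE 0.276, adjusted p = 8.84e-06), and Apoe, the apolipoprotein secreted by astrocytes, of -1.47 (SE 0.467, adjusted p = 0.0126). With the library total as a covariate, the direction of Apoe turned (1.74, adjusted p = 0.0144), and Dbi (-0.18, adjusted p = 0.699) and Vim (-0.93, adjusted p = 0.0618) were no longer called by edgeR. The P4 libraries of Apoe ranged from 19.2 to 804.2 CPM and overlapped the E19 range of 209.4 to 417.9 CPM. In Cux2 KO, Apoe had a log2 fold change of -1.05 and an adjusted p of 0.168. Acsbg1, an acyl-CoA synthetase, rose by 2.46 on the log2 scale (SE 0.154, adjusted p = 9.35e-09), and Clu, the chaperone clusterin, was also called higher, at 381.5 ± 46.3 CPM against 78.4 ± 19 CPM. Aldoc, the brain aldolase, and Aldh1l1, a folate enzyme much used as an astrocyte marker, had log2 fold changes of 0.74 and 0.75, below the threshold.

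Of receptors and signalling genes, S100b, a calcium-binding protein, rose from 0.189, 0.634 and 1.07 CPM to 8.22, 18.3 and 30.1 CPM (log2 fold change 4.96, SE 0.314, adjusted p = 1.04e-08). Ntsr2, a neurotensin receptor, and Ndrg2 were called higher, and Fgfr3, a receptor for fibroblast growth factors, was not called, at 79.3 ± 12.8 and 51.5 ± 17.7 CPM. In the extracellular matrix group, Ptprz1, a receptor phosphatase, was called higher (1029 ± 146 CPM at E19 and 2293 ± 606 CPM at P4), whereas Bcan, brevican, and Tnc, tenascin C, were not called. Of 20 further astrocyte and radial glia genes outside the members, 11 were called higher and 2 lower in WT, against 22.5% and 24.8% of all genes. Gpr37l1, a receptor of astrocytes, was at a mean of 158.3 against 3.505 CPM.

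**Figure D2:**
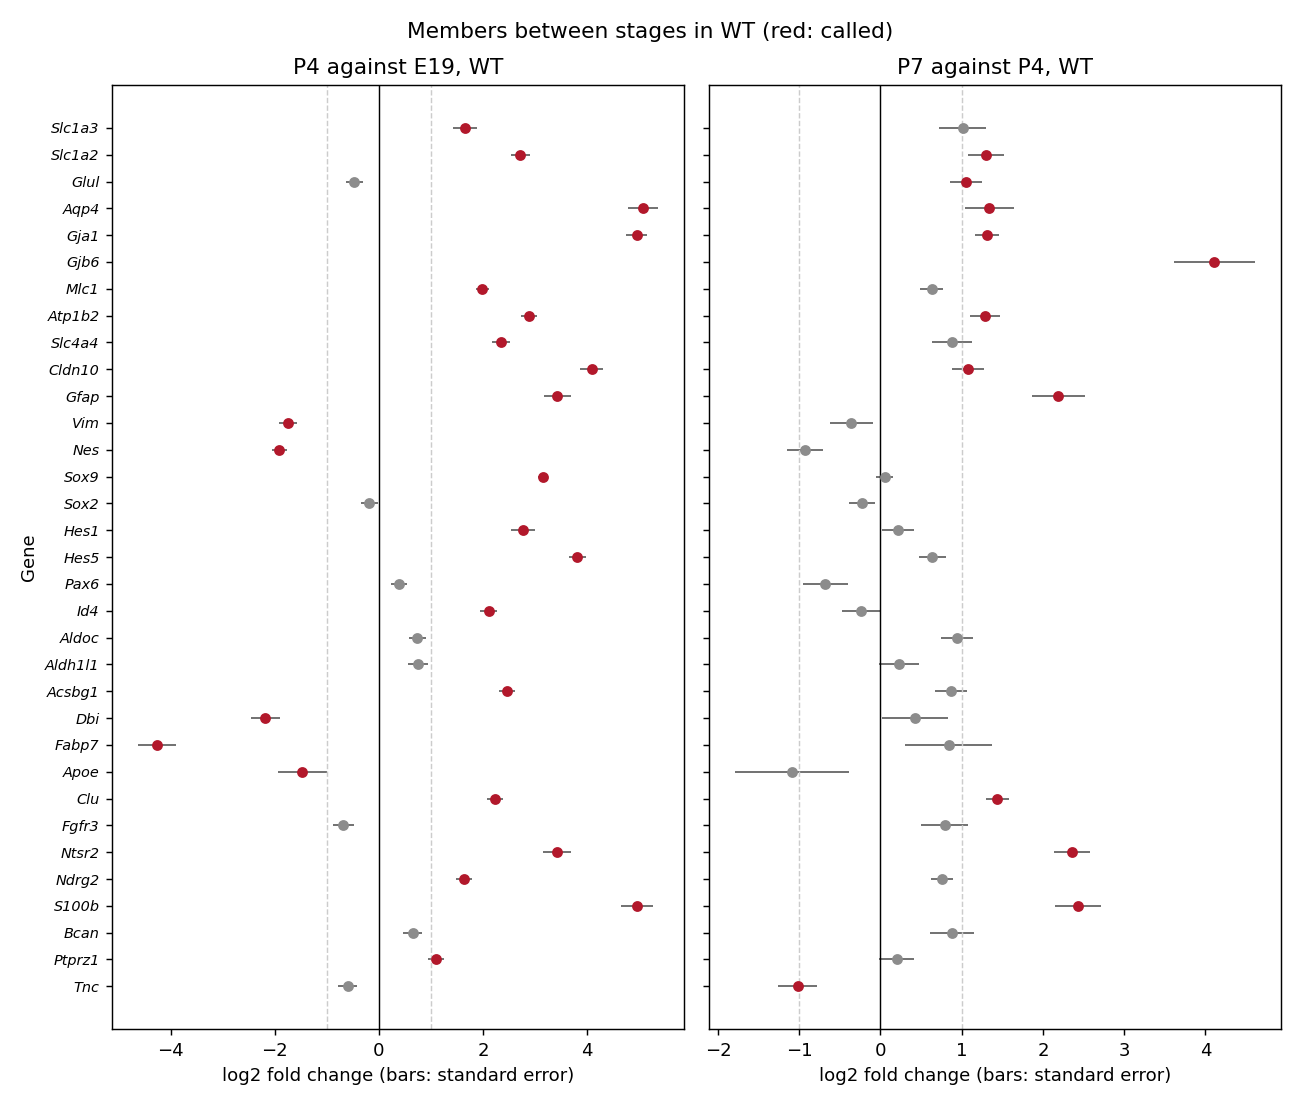
log2 fold change of each member (horizontal axes, bars standard error) for P4 against E19 (left) and P7 against P4 (right) in WT, with called genes in red and the threshold of 1 dashed. Gjb6 is left out on the left, where it had no count in 7 E19 libraries. Channel and junction genes lay right of the threshold at the first step and 5 of 7 of them lay right of it again at the second, whereas Vim, Nes, Dbi, Fabp7 and Apoe were called lower at the first step and not at the second. With the library total as a covariate, Apoe turned to 1.74 at the first step, and Vim and Dbi were not called.

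Levels of single genes were compared with each other per kb of exon. The length counts the exons of all annotated transcripts of a gene, which need not all be expressed. At E19 in WT, Fabp7 stood highest at 450 ± 56.9 CPM per kb, followed by Dbi at 135 ± 26.0 and Vim at 120.5 ± 23.4 CPM per kb, which differed by less than their spread. At P4 Sox9 and Hes5 led at 221.9 ± 27.4 and 218.8 ± 51.1 CPM per kb, and at P7 Hes5 and Atp1b2 at 344.9 ± 60.9 and 318.9 ± 32.1 CPM per kb, again within their spread. Aldoc came next at both later stages, at 165.1 ± 50.9 and 304.1 ± 55.8 CPM per kb, and Fabp7 was no longer among the first 5.

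**Figure D3:**
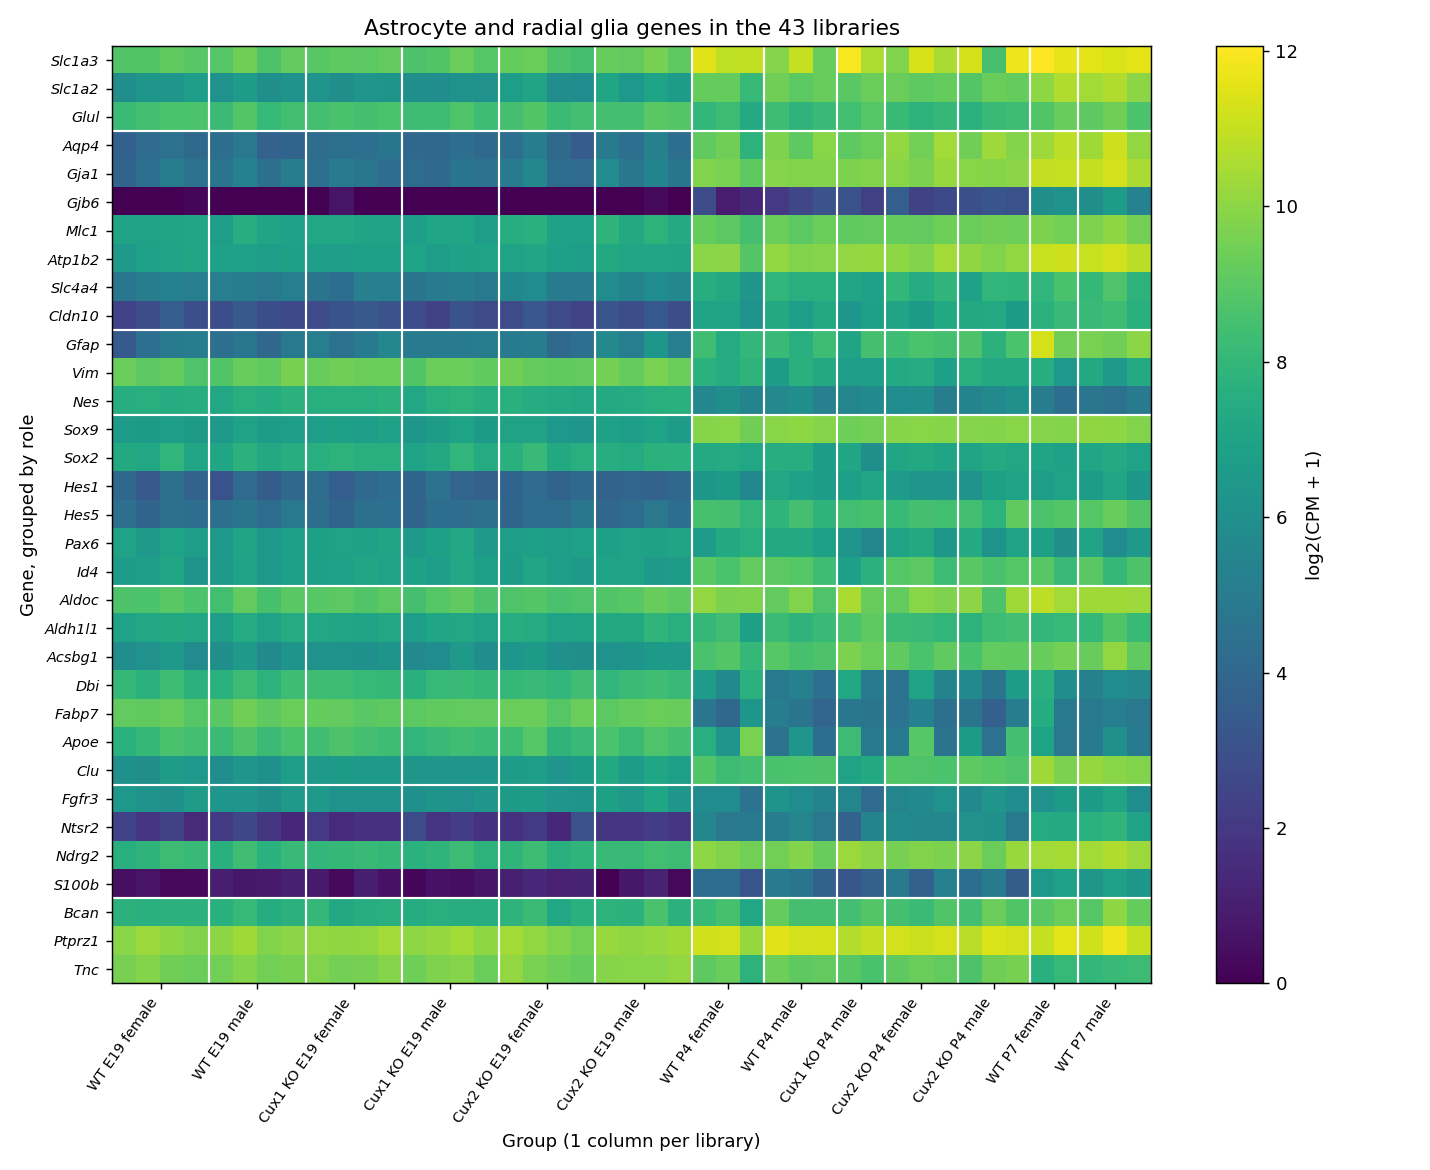
Level of the 33 members as log2(CPM + 1) (colour) in the 43 libraries (columns, by group) with genes in rows by role. Between the E19 and P4 columns most channel, junction and transcription factor rows brightened, and the Vim, Nes and Fabp7 rows darkened.

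The second comparison asked what changed from P4 to P7 in WT (6 and 5 libraries, within 1 sequencing round). Its P4 libraries are also those of the first comparison. Here 12 of the 33 members were called, 11 higher and 1 lower, or 36.4%, against 2.32% of the 22385 genes tested (1.6% higher and 0.715% lower). The median log2 fold change was 0.84 over the members and 0 over all genes. The P7 and P4 libraries did not overlap in 17 members, against 6.89% of all genes, and P7 was the higher stage in 16 of these.

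The members called higher were 5 channel and junction genes, Slc1a2 and Glul of glutamate uptake, Ntsr2, S100b, Clu and Gfap. Ntsr2 was at 45.4, 27.8 and 30.5 CPM in the P4 females and 34.1, 44.2 and 27.3 CPM in the P4 males, and at 171 and 165 CPM in the P7 females and 208, 237 and 123 CPM in the P7 males. Every P7 library exceeded every P4 library (log2 fold change 2.36, SE 0.218, adjusted p = 0.00405). Clu was at 303.9 to 437.9 CPM in the 6 P4 libraries and at 1280, 822, 1120, 966 and 880 CPM in the 5 of P7 (log2 fold change 1.44, SE 0.146, adjusted p = 0.00454). Gja1 was at 1950, 2050, 1950, 2390 and 1490 CPM at P7, all above its highest P4 level (log2 fold change 1.31, SE 0.145, adjusted p = 0.00527). S100b rose by 2.43 (SE 0.286, adjusted p = 0.00617), Gjb6 by 4.11 (SE 0.496, adjusted p = 0.0066), Atp1b2 by 1.29 (SE 0.186, adjusted p = 0.00922), Slc1a2 by 1.30 (SE 0.22, adjusted p = 0.0133) and Cldn10 by 1.08 (SE 0.195, adjusted p = 0.0167), all on the log2 scale. Glul rose by 1.05 (SE 0.194, adjusted p = 0.0184). Aqp4, at 1270, 1860, 1290, 2230 and 1100 CPM at P7, rose by 1.34 (SE 0.304, adjusted p = 0.0349), and it was singled out, like Tnc below, after the values were seen. Gjb6 reached 39.8 to 99.2 CPM at P7, and this was its first stage above 11.2 CPM in any library.

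Gfap was the member least even at P7. Its 5 libraries were at 2520, 702, 787, 700 and 986 CPM, the first being WT female replicate 1, against 169.9 to 328.9 CPM at P4 (log2 fold change 2.19, SE 0.328, adjusted p = 0.00933). All 5 exceeded the P4 libraries, and without that female Gfap was still called, at a log2 fold change of 1.58. Tnc, which is made by radial glia and immature astrocytes, was the only member called lower at P7, at 200, 269, 250, 276 and 306 CPM against 219.4 to 676.9 CPM at P4 (log2 fold change -1.02, SE 0.238, adjusted p = 0.0383). Its groups overlapped through WT P4 female replicate 3, and in 8 of the 11 fits that left out a single library no member was called lower. Nes lay lower in every P7 library, at 19.3 to 33.8 CPM, with a log2 fold change of -0.93 that did not reach the threshold. None of the 6 transcription factors passed the test. Sox9 was at 926.5 ± 114 CPM at P4 and 953.8 ± 82.1 CPM at P7 (adjusted p = 0.853), and Hes5, Sox2 and Pax6 were at 472.5 ± 83.4, 135.4 ± 17.2 and 90.6 ± 33.1 CPM at P7. Vim was at 136.1 ± 44.4 CPM, Aldoc at 1420 ± 261 CPM and Slc1a3 at 3234 ± 614 CPM. Fabp7, Dbi and Apoe each had their highest P7 level in WT female replicate 1, at 175, 200 and 127 CPM, and lay between 26.3 and 64.8 CPM in the other 4 libraries. The count of 12 members fell to 7 without WT P7 female replicate 2, and was 11 without the library of lowest total at each of the 2 stages.

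Markers of other cells moved with the stages too, and their part in these results was not tested. The summed level of 10 genes of the oligodendrocyte lineage was 529.7 to 770.3 CPM in the WT libraries of E19, 755.7 to 3578 CPM at P4 and 4158 to 6100 CPM at P7. For 10 microglial genes it was 51.07 to 89.61, 62.84 to 116 and 323.1 to 1519 CPM, for 10 endothelial genes 8.326 to 50.07, 105 to 485.2 and 148.6 to 461.4 CPM, and for 10 genes of ciliated ependymal cells 16.22 to 49.96, 49.07 to 270.9 and 3.938 to 393.2 CPM. None of these 4 lists had a gene at 0 in every library of a stage. Cell cycle genes, 10 in number, summed to 558.1 to 1050 CPM at E19, 1630 to 2414 CPM at P4 and 695.1 to 1388 CPM at P7.

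For some members the level followed the library total. At P4, where totals differed 3.11-fold, Slc1a3 was at 370 and 610 CPM in the 2 libraries of 59132160 and 60559585 counts, and at 3880, 1970 and 3410 CPM in those of 19499125, 20919432 and 22894355 counts. In raw reads, Aldoc varied only 1.83-fold over the 14 P4 libraries, from 18864 to 34476, less than the totals did. Apoe had 18194 reads in WT female replicate 3, the WT library of lowest total at P4 (20919432 counts), and 1228 reads in WT male replicate 3, that of highest total. Across the 14 P4 libraries, Pearson's r between log2(CPM + 1) and the log2 total was -0.95 for Dbi (Spearman's rho -0.95), -0.92 for Aldoc (rho -0.89), -0.92 for Apoe (rho -0.94), -0.91 for Slc1a3 (rho -0.92) and -0.73 for Ndrg2 (rho -0.72). Without the 2 libraries farthest from the median total, r was -0.93, -0.97, -0.91, -0.96 and -0.90 in the same order. These values are descriptions over libraries that share the total as the divisor of CPM, and the median r over the 16990 genes with a mean of at least 1 CPM was 0.11. Fabp7 had an r of -0.67 (rho -0.70). The opposite sign was seen for Cldn10, Ptprz1, Aqp4, S100b, Slc1a2 and Bcan, with r of 0.79, 0.67, 0.66, 0.65, 0.63 and 0.61. Without the 2 farthest libraries these were lower, at 0.65, 0.47, 0.50, 0.45, 0.57 and 0.53. Hes5 had an r of -0.56, and of -0.89 without the 2 farthest libraries. At E19, over 24 libraries, Fabp7 had an r of -0.93 (rho -0.95), followed by Bcan, Dbi, Aldh1l1, Apoe and Aldoc with r of -0.69, -0.68, -0.67, -0.59 and -0.58, against a median of 0.01 over all genes, and no member had a positive r. The authors had removed duplicated reads at a set threshold before counting, and whether this step acts here was not tested.

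With the log2 total as a covariate, added after seeing the data, Apoe, Dbi and Vim thus lost their calls of a fall from E19 to P4 in WT, and the log2 fold change of Apoe from P4 to P7 was -2.99 (adjusted p = 0.0227) in place of -1.09 (adjusted p = 0.399). For E19 to P4, Fabp7 and Nes remained called lower at -2.20 and -1.67, and Gja1, Sox9 and Hes5 higher at 5.09, 3.17 and 4.13. From P4 to P7, Gfap was no longer called (log2 fold change 1.54, adjusted p = 0.153). Stage and total were partly aligned, since no E19 library exceeded 20715732 counts, while all but 1 of the P4 libraries did.

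**Figure D4:**
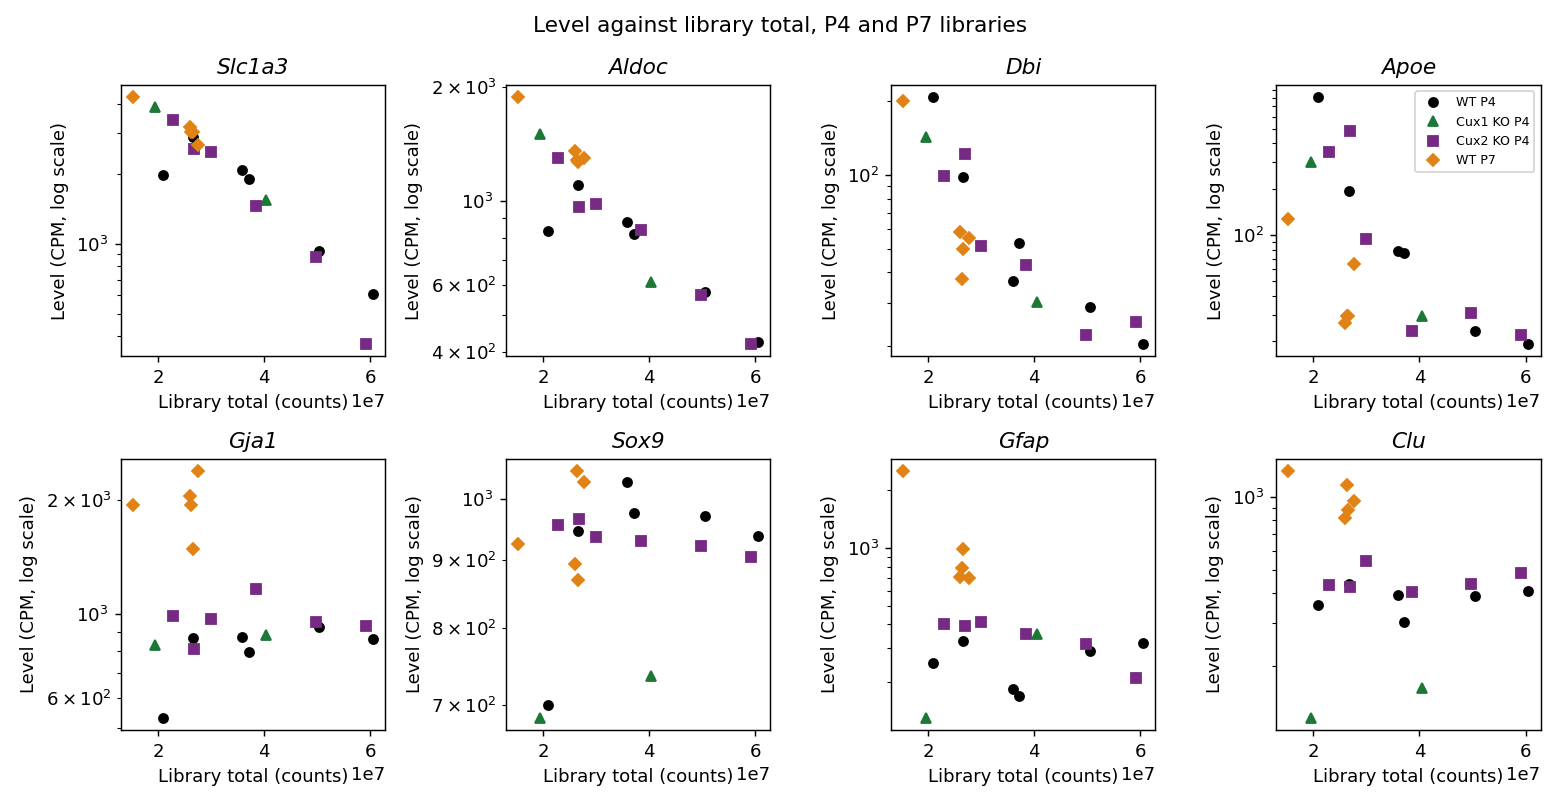
Level in CPM (vertical axes, log scale) of 8 members against library total in counts (horizontal axes) in the P4 and P7 libraries, with 1 point per library in a colour and shape for each genotype and stage. Slc1a3, Aldoc, Dbi and Apoe fell as the total rose, down to 370, 419, 20.3 and 19.2 CPM. For Gja1, Sox9, Gfap and Clu, Pearson's r with the log2 total at P4 was 0.41, 0.42, 0.09 and 0.30. Without the 2 libraries farthest from the median total, it was 0.03, -0.19, -0.39 and -0.10.

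The third set of comparisons asked whether loss of Cux1 or Cux2 changed the glial genes. No member was called by edgeR in any of the 7 comparisons of a KO with WT of the same stage and sex. At E19, the background was 0.0576% and 0.0979% of genes for Cux1 KO females and males, and 0.0287% and 0.121% for Cux2 KO females and males. At P4 it was 0% in each of the 3 comparisons. At an unadjusted p under 0.05, 2 of 31, 4 of 32, 1 of 32 and 9 of 32 members passed at E19 in that order, against 6.87%, 10.4%, 4.62% and 7.94% of all genes. At P4, 8, 1 and 1 of 33 passed in Cux1 KO males, Cux2 KO females and Cux2 KO males, against 20.5%, 7.39% and 5.76%. DESeq2 called members in 2 of the 7 comparisons, which are given below. A count of 0 at P4 does not show that the members did not differ. The comparisons at a stage and sex share their WT libraries. At E19, over both sexes, Sox9 was at 106 ± 14.6 CPM in Cux1 KO and 107 ± 18.9 CPM in Cux2 KO, and Vim at 603.5 ± 78.4 and 647.9 ± 87.1 CPM (n = 8 each). At P4, Sox9 was at 684.8 and 736.7 CPM in Cux1 KO and 936.1 ± 22.4 CPM in Cux2 KO, and Aqp4 at 527.8 and 631.4 CPM and at 1004 ± 274 CPM (n = 6).

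At E19, Cux2 KO males had the most members with a small p. Their 9 members with an unadjusted p under 0.05 were all higher than in WT, 28.1% of those tested, and 4.8% of all genes were higher at that p, while the members' median log2 fold change was 0.20 against -0.01 over all genes. Slc4a4, a bicarbonate transporter of astrocytes, was at 57.9, 43, 58.2 and 48.5 CPM in the Cux2 KO males and 34.4, 32.2, 27.3 and 35.9 CPM in the WT males. Its log2 fold change was 0.66 (SE 0.137, unadjusted p = 0.000375, adjusted p = 0.166 by edgeR). Gfap was at 50.9, 35.3, 79.5 and 34.6 CPM against 20.3, 26, 15.7 and 28.3 CPM (log2 fold change 1.13, SE 0.262, adjusted p = 0.266). DESeq2 called Slc4a4 and Gfap, with adjusted p of 0.00335 and 0.00282 and a background of 0.313%, as did edgeR without a filter on low counts, with a background of 0.212%. Tnc followed, at a log2 fold change of 0.32 (SE 0.0946, adjusted p = 0.484). The 10 ependymal genes summed to 286.4, 43.3, 109.2 and 15.7 CPM in the Cux2 KO males, in the order above, and to 16.22 to 49.96 CPM in WT males, and the 2 Cux2 KO males of highest Gfap level were those of highest ependymal sum. The oligodendrocyte sum was 706.8, 635.1, 1012 and 423.8 CPM, against 634.7 to 770.3 CPM. Their part in the values of Slc4a4 and Gfap was not tested.

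In Cux2 KO females Slc4a4 was at 49.1, 55.5, 29.4 and 29.5 CPM against 25.3, 33.5, 38.2 and 34.9 CPM in WT females, and the groups overlapped (log2 fold change 0.31, SE 0.209, adjusted p = 0.977). Clu had a log2 fold change of 0.27 (SE 0.156, adjusted p = 0.977), and S100b, near the floor at E19, of 1.83 (SE 0.466, adjusted p = 0.618). The difference of the Cux2 KO effect between sexes at E19, tested as an interaction, gave no call (0% of genes). With no gene called, the lack of a called member does not show that the effect was alike in both sexes. At an unadjusted p under 0.05, 2 of 32 members passed, against 3.78% of genes. For Gfap the difference was -1.05 on the log2 scale (SE 0.467, adjusted p = 0.979). In Cux1 KO males at E19, Gja1 had a log2 fold change of -0.51 (SE 0.193, adjusted p = 0.377), Gfap of 0.43 (SE 0.165, adjusted p = 0.38) and Apoe of -0.29 (SE 0.123, adjusted p = 0.453). In Cux1 KO females the smallest p-values belonged to Vim, Sox9 and Aldoc, with log2 fold changes of 0.24, 0.18 and 0.18 (SE 0.105, 0.0812 and 0.0925) and adjusted p of 0.708, 0.709 and 0.735 by edgeR.

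At P4, Cux1 KO males had 2 libraries, of 19499125 and 40421655 counts, against 3 WT males. Clu was at 122 and 162 CPM in Cux1 KO and at 389, 394 and 407 CPM in WT, without overlap (log2 fold change -1.50, SE 0.17, unadjusted p = 0.00031, adjusted p = 0.0764 by edgeR). Id4 was at 110 and 211 CPM against 513, 471 and 321 CPM (log2 fold change -1.46, SE 0.379, adjusted p = 0.122), and Aldh1l1 at 395 and 538 CPM against 300, 231 and 278 CPM (log2 fold change 0.77, SE 0.196, adjusted p = 0.119). Neither overlapped WT. Non-overlap was common in these few libraries, at 41.4% of all genes and 13 of 33 members, 39.4%. DESeq2 called Clu, Id4 and Pax6 lower, but it called 11.8% of all genes. The edgeR fit of all P4 groups together called Clu and Id4, with adjusted p of 0.000438 and 0.0126, and 11% of all genes. Without Cux1 KO male replicate 2, edgeR called Clu (log2 fold change -1.69, adjusted p = 0.0442), the lone Cux1 KO library being assumed to vary like the WT libraries.

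Both libraries also stood apart from the WT males in other measures. They had 17049 and 19115 genes with a count, against 20844 to 22546, and the ribosomal protein genes summed to 16430 and 11150 CPM, against 6889 to 8374 CPM. The 8 genes of intermediate progenitors summed to 78.36 and 143.7 CPM in Cux1 KO against 315.9 to 447 CPM in the WT males, the 10 cell cycle genes to 1312 and 527.9 CPM against 1630 to 1924 CPM, and the upper-layer neuron genes to 1420 and 2038 CPM against 848.3 to 1139 CPM. Against the WT males, Notch pathway genes summed to 543 and 550.8 CPM (931.1 to 1032 in WT), ependymal genes to 4.13 and 13.13 CPM (51.14 to 125.6), microglial genes to 22.79 and 29.57 CPM (62.84 to 116), endothelial genes to 57.41 and 126.9 CPM (220.2 to 485.2), interneuron genes to 83.26 and 172.7 CPM (361.8 to 564.9) and oligodendrocyte genes to 1461 and 1404 CPM (2582 to 3578). The part of these measures in the values of Clu and Id4 was not tested.

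In Cux2 KO at P4, Aqp4 was at 1090, 713 and 1350 CPM in females against 559, 696 and 220 CPM in WT females (log2 fold change 1.11, SE 0.425, adjusted p = 0.663), and Clu at 541, 483 and 433 CPM in males against 389, 394 and 407 CPM (log2 fold change 0.33, SE 0.121, adjusted p = 0.772). Neither group pair overlapped, as for 2 of 33 members in females (15.7% of all genes) and 3 of 33 in males (12.6%). Acsbg1 and Ntsr2 in females had log2 fold changes of 0.47 and 0.52 (SE 0.216 and 0.219, adjusted p of 0.686 and 0.676), and Dbi and Apoe in males of 1.08 and 2.00 (SE 0.526 and 1.06, adjusted p of 0.936 and 0.961). Without Cux2 KO P4 male replicate 3 the latter were 0.45 and 0.57, and with the library total as a covariate 0.25 and 0.17. The difference of the Cux2 KO effect between E19 and P4 gave no call among the members, against 0.298% of genes, nor an unadjusted p under 0.05 in any, against 8.32%. Its smallest p-values belonged to Pax6, Sox2 and Vim, with differences of -0.38, -0.32 and -0.31 on the log2 scale (SE 0.245, 0.211 and 0.204) and adjusted p of 0.779, 0.788 and 0.794.

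**Figure D5:**
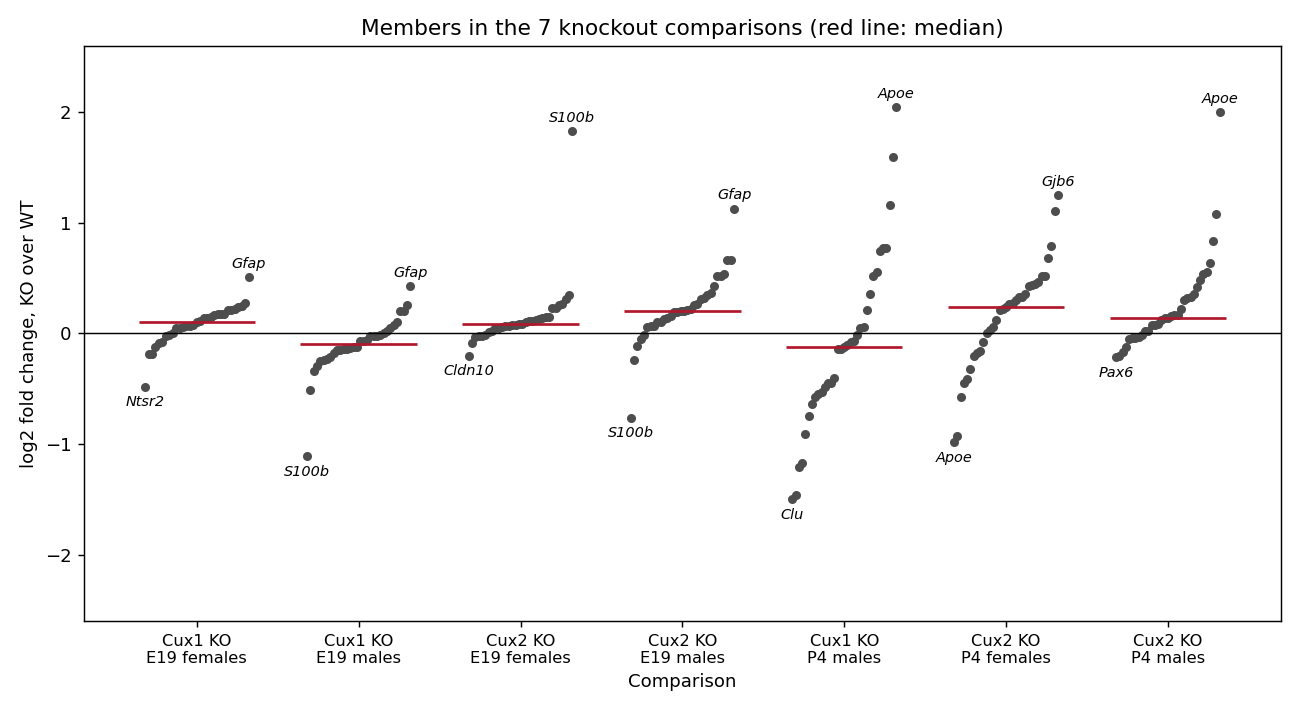
log2 fold change of each tested member (points) in the 7 comparisons of a KO with WT, in rising order within each, with the median in red and the lowest and highest gene named. No point was called by edgeR. Apoe had the highest value in Cux1 KO and Cux2 KO males at P4 (2.05 and 2.00, the latter 0.57 without Cux2 KO male replicate 3) and the lowest in Cux2 KO females (-0.98), and Gfap the highest in 3 of the 4 comparisons at E19. For the value of 2.05, the Cux1 KO males were at 304 and 29.5 CPM and the WT males at 23.3, 78.3 and 19.2 CPM, so that the groups overlapped.

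The last comparisons asked whether WT L2/3F and L2/3M neurons differed in the glial genes. No member was called at E19, P4 or P7 (edgeR, background 0.0461%, 0% and 0.0247%). At P4, edgeR called none of the 19213 genes tested. The paper reports that sex-linked genes such as Xist differed between the sexes at all stages. A lack of calls among the members at P4 thus does not show that the sexes did not differ. At an unadjusted p under 0.05, 1 of 32, 3 of 33 and 2 of 33 members passed at the 3 stages, against 3.67%, 7.28% and 4.36% of genes. At P4, Dbi was at 98.2, 52.8 and 208 CPM in females and 28.8, 36.7 and 20.3 CPM in males, with every female above every male (log2 fold change 2.12, SE 0.538, unadjusted p = 0.00662, adjusted p = 0.656). Apoe was at 194, 76.1 and 804 CPM in females and 23.3, 78.3 and 19.2 CPM in males, and the sexes overlapped (log2 fold change 3.21, SE 1.02, adjusted p = 0.675, and 1.78 without WT P4 female replicate 3). Hes1 was lower in females, at 82.1, 93.5 and 48.9 CPM against 150, 120 and 98.7 CPM (log2 fold change -0.68, SE 0.279, adjusted p = 0.681). DESeq2 called Dbi, with an adjusted p of 0.00548 and a background of 0.823%. The change of the sex difference from E19 to P4 gave no call by edgeR (background 0.0747%), with 3 of 33 members at an unadjusted p under 0.05 against 11.2%. It was 2.17 for Dbi (SE 0.521, adjusted p = 0.176) and 3.40 for Apoe (SE 0.921, adjusted p = 0.211) on the log2 scale, and DESeq2 called both, with a background of 1.36%. The Cux1 KO effect by sex at E19 and the Cux2 KO effect by sex at P4 gave no call either (0% of genes). With no gene called in either, the lack of a called member does not show that these effects were alike in both sexes. At an unadjusted p under 0.05, 2 of 32 and 0 of 33 members passed, against 3.81% and 7.27%.

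Library totals and other lists moved with these sex differences. The WT females of P4 had 26654499, 37079440 and 20919432 counts and the WT males 50429979, 35891853 and 60559585 counts. At P4 the sexes did not overlap in the sums of the oligodendrocyte lineage (755.7 to 2098 CPM in females, 2582 to 3578 CPM in males), endothelial cells (105 to 178.4 and 220.2 to 485.2 CPM), intermediate progenitors (542.3 to 633.8 and 315.9 to 447 CPM), the cell cycle (2073 to 2414 and 1630 to 1924 CPM) and ribosomal proteins (8893 to 11700 and 6889 to 8374 CPM). The same held for interneurons (605.6 to 1170 and 361.8 to 564.9 CPM) and leptomeningeal fibroblasts (8.256 to 8.798 and 11.27 to 34.68 CPM). The part of these lists was not tested. In the Cux2 KO comparisons at P4, also of 3 against 3 libraries, 15.7% of all genes in females and 12.6% in males did not overlap. The share between the WT sexes, whose totals differed, was not determined. With the log2 total as a covariate, the log2 fold changes of females against males at P4 were 0.41 for Dbi, -0.01 for Apoe and 0.08 for Slc1a3, by edgeR with adjusted p of 1 for each. Among these males only replicate 2 had a total below that of any female. Sex and total were thus largely aligned, and this fit cannot separate them. At P7, Dbi and Fabp7 had log2 fold changes of 1.49 and 1.81 (SE 0.507 and 0.693, adjusted p of 1 for both). Fabp7 was at 175 and 27.9 CPM in the 2 females and 28.4, 34.2 and 27.3 CPM in the 3 males, so that 1 female, of 15312029 counts, carried the difference, and without it the log2 fold change was -0.08 for Fabp7 and 0.32 for Dbi. At E19, S100b was lowest in p, with a log2 fold change of -1.34 (SE 0.504, adjusted p = 0.992) at 3 to 18 reads a library, followed by Hes5 at -0.30 (SE 0.171) and Gja1 at -0.38 (SE 0.245), both with an adjusted p of 0.992.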

How the data were processed

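RNA-seq read counts of 56980 genes in 43 libraries were used. Per the paper's methods, reads were mapped to GRCm39 by hisat2 with the Y chromosome masked in females and its pseudoautosomal regions in males. Duplicated reads were removed at a set threshold, and featureCounts assigned primary alignments to Ensembl genes. The authors deposited raw counts. A strand setting is not given in the sources used here, so overlapping genes cannot be told apart.

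Groups came from the sample labels. Nothing there says that replicates were separate animals, so p-values measure the spread between libraries, which may be technical. No 2 libraries of a group agreed within sampling noise. The study used DESeq2. Here edgeR 4.0.16 in R 4.3.3 was the main test (quasi-likelihood, TMM, filterByExpr, only the groups compared, Benjamini-Hochberg over all genes), and DESeq2 1.42.0 an alternative. SE was the absolute log2 fold change over the root of F. Interactions were called by adjusted p alone. Scripts were tested on simulated data. Positions and exon lengths came from GENCODE M39, which holds 56236 of the gene IDs. The genes named for a comparison were the members called (the 10 of smallest p where more were called) or, with none called, the 3 of smallest p, plus 12 members described in each stage. Members and lists were chosen with earlier results of these data known. The fits with the library total as covariate, and the P7 fit without the libraries of lowest total, were chosen after seeing the data. Other alternatives were DESeq2 size factors, no filter on low counts, all groups in one fit, a replicate block and leaving out each library.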

Additional observations from a re-analysis of the deposited data

Results flagged for a closer look

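In the 6 groups of 4 libraries, all at E19, 14 of 198 sets of a member and a group had 1 library whose gap to the rest passed Dixon's critical value. Where all 4 values vary, chance flags about 1 in 20 such sets. Gjb6 had no count in any library of WT males, Cux1 KO males and Cux2 KO females, so these sets could not be flagged. In each other group 1 library alone had reads of Gjb6, so its flag was fixed in advance. Among Cux1 KO females, replicate 2 stood apart for Gjb6 (0.621 CPM, the others at 0) and Vim (706 CPM, the others 621 to 632), replicate 1 for Fgfr3 (90.2 CPM) and replicate 4 for Ptprz1 (1340 CPM). Among Cux1 KO males, replicate 3 was high for Glul (420 CPM, the others 303 to 319) and replicate 4 for Gfap (33.2 CPM). In Cux2 KO females, replicate 3, the E19 library of highest total, was low for Fabp7 (475 CPM, the others 632 to 641). In Cux2 KO males, replicate 3 was high for Bcan (391 CPM, the others 214 to 225), Ntsr2 (3.55 CPM) and Gjb6 (0.213 CPM). In WT females, replicate 3 was high for Sox2 (245 CPM, the others 142 to 158) and Aldoc (509 CPM, the others 399 to 415), replicate 4 for Gjb6 (0.12 CPM), and replicate 2 low for Bcan (202 CPM).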

How the results depend on the processing

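Of 1342 values of single genes under other settings, 1308 kept their direction and their side of the threshold. From a count of 0 members called by edgeR, DESeq2 called 2 in Cux2 KO males at E19, with and without a prior, as did edgeR with no filter on low counts. In Cux1 KO males at P4, DESeq2 called 3 and the fit of all groups 2. For WT females against males at P4 DESeq2 called 1, and for the change of the sex difference between E19 and P4 it called 2 without a prior. The cause was not tested. Leaving out each library gave 25 for P4 against E19 in WT, 24 to 25 in Cux2 KO, 7 to 12 for P7 against P4 (7 without WT P7 female replicate 2), 0 to 1 in Cux1 KO males at P4 (1 without Cux1 KO replicate 2), 0 to 2 for the sex difference by stage (2 without WT P4 male replicate 2) and 0 in the remaining comparisons.

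With the log2 library total as a covariate, the sign turned for Apoe between the sexes at P4 (-0.01), Fabp7 between the sexes at P7 (-0.23) and Apoe in the Cux2 KO effect by sex at P4 (0.22, from -2.99). Leaving out single libraries, the log2 fold change of Fabp7 between the sexes at P7 ranged from -0.08 (without WT P7 female replicate 1) to 2.6.

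At E19 and P4, replicate numbers did not pair the libraries, since same-numbered libraries had mean correlations of -0.093 to 0.108. Between WT females and males at P7, the 2 shared numbers had correlations of 0.26 and 0.372 (mean 0.316). So few numbers cannot decide whether those libraries were paired. With the replicate number as a block, 25 and 24 members were called for P4 against E19 in WT and Cux2 KO, 9 for P7 against P4, and 0 in every other comparison. Depth limits Gjb6 and S100b most at E19, where WT libraries held 0 to 2 and 3 to 18 reads of them.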
